A study of Mus musculus with 8 samples.

Results

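The regulators of the epithelial-mesenchymal transition described here were 10 genes of the 27179 in the count matrix, chosen by name and matched by their mouse Entrez identifiers. They were the transcription factor genes Zeb1, Zeb2, Snai1, Snai2, Twist1, Twist2, Ovol1, Ovol2 and Grhl2 and the splicing factor gene Esrp1, and all 10 were present in the matrix. They were not selected by a rule on measured values, but earlier results of these data were known when they were chosen. Of the 10, 8 passed the filter on low counts and were tested, and Ovol2 and Esrp1 did not pass it. Positions given with the genes are those of the whole gene in the RefSeq annotation of GRCm38.p6 (mm10).

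RNA sequencing had been carried out on 4 related lines of mouse mammary tumour cells: 67NR, 66cl4, 4T1 and its derivative 4T1.2. Each line had 2 libraries, which the study describes as biological replicates, and p-values below measure only the spread between such libraries. All of these lines grow in BALB/c mice, and 4T1 and 4T1.2 cells spread to distant organs more readily than 66cl4 and 67NR cells, 4T1.2 being the line used to model spread to bone. The labels record no treatment and no engineered allele, and each line is a single established line, so that every difference below is between lines and not between treatments. One line appears in the sample labels as 66c14 and in the description of the series as 66cl4, which is the name used here. The study compared 4T1/4T1.2 cells with the less metastatic 66cl4 and 67NR cells, and the mean of the first pair against the mean of the second pair (the pooled comparison) is the first comparison below.

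In the epithelial-mesenchymal transition, epithelial cells lose their junctions and polarity and take on the shape and motility of mesenchymal cells. The ZEB and SNAI zinc finger proteins and the TWIST basic helix-loop-helix proteins bind E-box sequences, repress epithelial genes such as Cdh1 and allow mesenchymal genes to be expressed. OVOL and GRHL2 proteins act on the epithelial side and restrain ZEB1, and ESRP proteins direct the epithelial form of splicing. In mammary epithelium these opposing factors help to set luminal, basal and mesenchymal cell states.

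Library totals ran from 37159840 to 66269681 counts, which made 1 count worth between 0.0162 and 0.0273 CPM, the count relative to the normalised total of its library. Replicates of every line differed by more than counting noise, with a chi-square per degree of freedom of 10.3 in 67NR and of at least 58.1 in each of the other lines. The luminal keratin Krt8 and the intermediate filament Vim were abundant in all 4 lines, at mean levels of 496 CPM or more and 1948 CPM or more. The epithelial cadherin Cdh1, in contrast, had 629 to 2375 counts per library in 4T1/4T1.2 cells and 2 to 7 in 66cl4 and 67NR cells, so the label of mammary tumour line did not carry the same epithelial markers in each. A further keratin, Krt18, also set 66cl4 and 67NR cells apart. It was higher in 66cl4 cells by a log2 fold change of 6.82 (SE 0.23, edgeR adjusted p = 6.1e-08). Of 7 leucocyte markers, 4 had at most 3 counts in every library and 2 of these, Cd3e and Adgre1, had none. The summed leucocyte level was 0.194 to 0.496 CPM in 4T1/4T1.2 libraries and 17.8 to 22.9 CPM in 66cl4 and 67NR libraries. Without the lysozyme gene Lyz2 it was 0.0973 to 0.475 CPM in all 8 libraries. Of 5 endothelial markers, 1 had at most 3 counts in every library, and their sum was 0.829 to 3.70 CPM in 4T1/4T1.2 libraries and 0.335 to 0.442 CPM in the others. The part of these sums in the results below was not tested.

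Of the 10 regulators, 5 had a RefSeq promoter window of 300 bases (250 before the transcription start and 50 after it, GRCm38.p6). These were Zeb2, with 4 windows, and Snai1, Twist1, Twist2 and Ovol2, with 1 each. The 250 bases before the start are printed for Snai1 and Twist2, which showed opposite patterns across the lines, and for Twist1, which was abundant in every line. Capitals mark an E-box, CANNTG on either strand, a motif that includes CAGGTG and its reverse complement CACCTG. The Snai1 sequence lies at chr2:167537945-167538194 on the plus strand, the Twist2 sequence at chr1:91801211-91801460 on the plus strand and the Twist1 sequence at chr12:33957421-33957670 on the plus strand.
Snai1: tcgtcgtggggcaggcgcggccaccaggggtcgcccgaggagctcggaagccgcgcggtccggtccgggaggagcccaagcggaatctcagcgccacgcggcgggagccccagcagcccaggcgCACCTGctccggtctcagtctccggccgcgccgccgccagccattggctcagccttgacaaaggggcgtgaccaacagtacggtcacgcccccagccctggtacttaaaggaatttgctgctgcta
Twist2: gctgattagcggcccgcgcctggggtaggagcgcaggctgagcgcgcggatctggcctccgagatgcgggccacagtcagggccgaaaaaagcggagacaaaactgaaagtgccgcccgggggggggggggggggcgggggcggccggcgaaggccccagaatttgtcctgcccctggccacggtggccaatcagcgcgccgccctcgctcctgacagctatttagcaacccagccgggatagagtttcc
Twist1: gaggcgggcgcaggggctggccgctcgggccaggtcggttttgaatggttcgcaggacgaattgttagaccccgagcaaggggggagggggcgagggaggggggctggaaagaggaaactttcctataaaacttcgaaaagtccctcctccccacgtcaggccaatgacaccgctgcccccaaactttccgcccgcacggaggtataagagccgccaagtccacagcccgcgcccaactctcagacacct
The Snai1 window held a single E-box, CACCTG, whose first base is at position -126 from the start. No E-box was found in the windows of Twist1, Twist2, Ovol2 or Zeb2, and the grainyhead motif AACCGGTT, which is its own reverse complement, was found in none of the 5 genes. Among all 32851 promoter windows, 72.3% held CANNTG, 20.2% held CAGGTG on either strand and 0.146% held AACCGGTT. The Snai1, Twist1 and Twist2 windows contained 34, 27 and 25 CpG dinucleotides, against a median of 7 over all windows, and their GC contents were 70.0%, 66.0% and 64.7%, against a median of 52.7%. These matches describe the sequence only. Zeb1, Snai2, Ovol1, Grhl2, Esrp1 and Cdh1 had no window.

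Between 4T1/4T1.2 cells and 66cl4 and 67NR cells, the regulators split by paralogue. Snai1 was higher in 4T1/4T1.2 cells, while Zeb1, Snai2, Twist2 and Twist1 were lower, and Zeb2, Ovol1 and Grhl2 did not pass the test. Thus 5 of the 8 tested regulators passed an adjusted p of 0.05 in edgeR's quasi-likelihood test in the pooled comparison, 1 of them higher and 4 lower. Over all 13921 genes tested, 76.7% passed, 38.1% higher and 38.6% lower, so the share of regulators that passed was no larger than that of all genes. Snai1, Snai2 and Twist2 had at most 3 counts in each library of the lower pair of lines, and these 3 genes passed the filter through the lines in which they were high. Ovol1 likewise passed it only through the 4T1 libraries, the line in which it was highest. The 4 comparisons between a line of the first pair and a line of the second pair share libraries with the pooled comparison and with one another. In 4T1.2 against 66cl4, 5 of the 8 passed, where 68.9% of all genes did. In 4T1.2 against 67NR, 6 passed, where 67.9% of all genes did. All 8 tested regulators passed in 4T1 against 66cl4, where 70.1% of all genes did, and all 8 in 4T1 against 67NR, where 68.2% of all genes did. The last count was 5 without 4T1 replicate 2 and 5 without 67NR replicate 1.

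**Figure D1:**
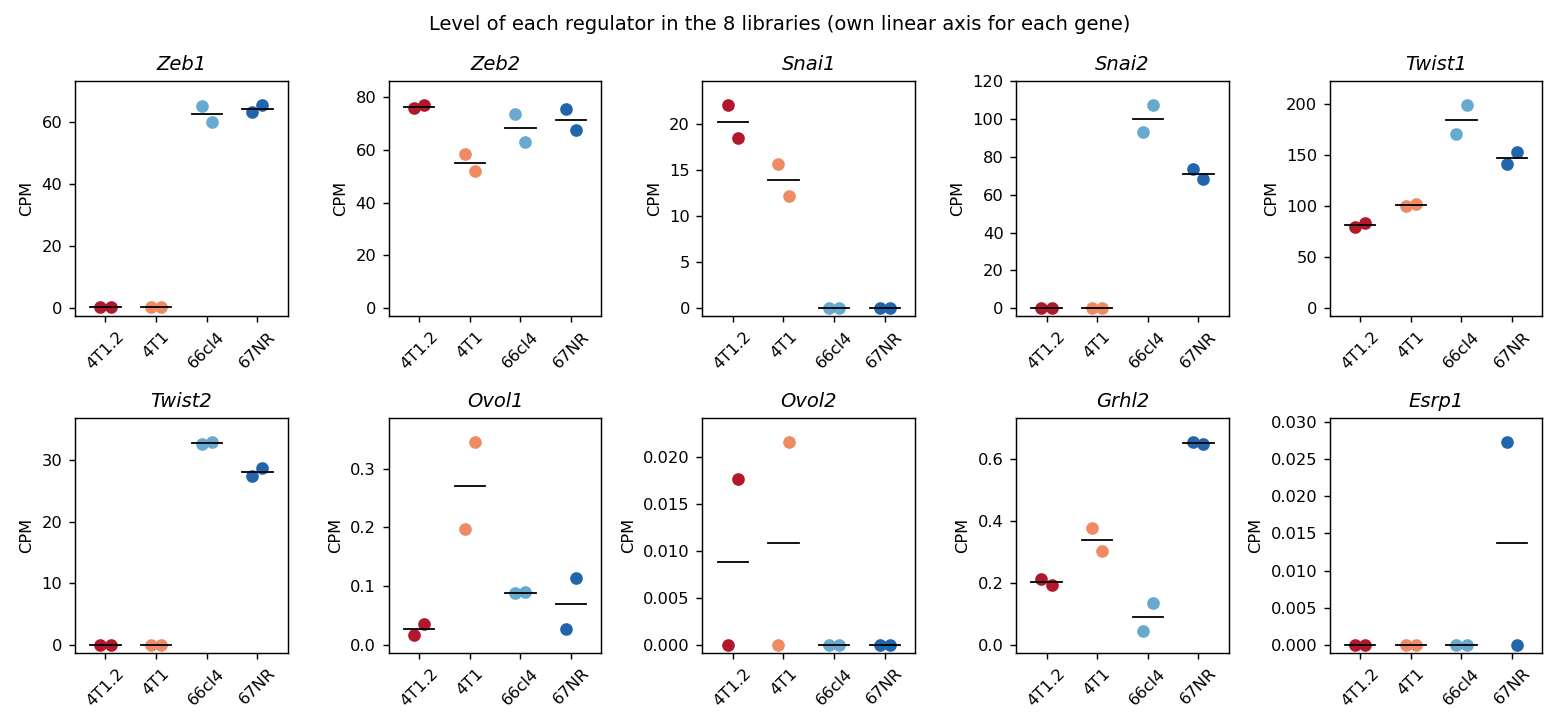
Level of each regulator (CPM, with its own linear axis for each gene) in the 8 libraries, with a point for each replicate and a bar at the mean of each line. Snai1 lay at 12.1 CPM or more in 4T1/4T1.2 libraries and at 0.0442 CPM or less in the others, Snai2 and Twist2 showed the opposite arrangement, and Zeb2 and Twist1 lay at 51.9 CPM or more in all 8 libraries.

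Zeb1 (chr18:5591327-5775468), which encodes a repressor of Cdh1 and of the miR-200 genes, was found at 0.264 and 0.371 CPM in 4T1.2 cells and at 0.459 and 0.453 CPM in 4T1 cells. Its levels were 65.1 and 60.0 CPM in 66cl4 cells and 63.1 and 65.3 CPM in 67NR cells. All 4 libraries of the first pair therefore fell far below all 4 of the second pair, although 15 to 28 counts were still found in each of them. The pooled log2 fold change was -7.37 (SE 0.11, edgeR adjusted p = 1.5e-11). Within the pairs no difference passed the test. The log2 fold change was -0.52 (SE 0.24, edgeR adjusted p = 0.246) for 4T1.2 against 4T1 and -0.04 (SE 0.10, edgeR adjusted p = 0.789) for 66cl4 against 67NR.

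Zeb2 (chr2:44983512-45117442), the paralogue of Zeb1, was expressed in every line. Its levels were 75.7 and 76.8 CPM in 4T1.2 cells, 58.2 and 51.9 CPM in 4T1 cells, 73.4 and 62.9 CPM in 66cl4 cells and 75.4 and 67.5 CPM in 67NR cells. The 4T1 libraries were the 2 lowest and the 4T1.2 libraries the 2 highest, and those of 66cl4 and 67NR overlapped. The pooled log2 fold change of -0.11 (SE 0.08, edgeR adjusted p = 0.223) did not pass the test. Zeb2 was higher in 4T1.2 than in 4T1 cells by a log2 fold change of 0.47 (SE 0.11, edgeR adjusted p = 0.0141). This call was lost without 4T1.2 replicate 1 (edgeR adjusted p = 0.068), 4T1.2 replicate 2 (0.0809) or 4T1 replicate 2 (0.0542). Zeb2 and Snai1 both lie on chromosome 2, whose 1110 tested genes had a median log2 fold change of 0.27 in this comparison, against 0 over all genes, and the part of this shift in the Zeb2 and Snai1 values was not tested. Zeb2 was also lower in 4T1 cells than in 66cl4 cells, by a log2 fold change of -0.31 (SE 0.11, edgeR adjusted p = 0.0272), and than in 67NR cells, by -0.37 (SE 0.11, edgeR adjusted p = 0.0113). The first of these was lost without any one of 4T1.2 replicate 1, 4T1.2 replicate 2, 4T1 replicate 2 or 66cl4 replicate 1 (edgeR adjusted p from 0.0503 to 0.193), and the second without 4T1 replicate 2 (0.0526) or 67NR replicate 1 (0.0989).

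Because Zeb1 was low where Zeb2 was not, the makeup of the ZEB pair differed between the lines. On a scale per length (RPKM, the CPM divided by the gene length in kilobases), Zeb2 made up 98.6% to 99.5% of the summed Zeb1 and Zeb2 level in 4T1/4T1.2 libraries and 39.7% to 43.2% in 66cl4 and 67NR libraries. The sum itself was 5.78 to 8.49 RPKM in the first pair and 17.2 to 19.3 RPKM in the second. Both quantities separated the pairs of lines without overlap.

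Snai1 (chr2:167538195-167542814) encodes Snail, a short-lived repressor of Cdh1. Its counts were 1250 and 1045 in 4T1.2 cells and 957 and 562 in 4T1 cells, whereas 66cl4 cells had 2 and 1 and 67NR cells had 0 in both libraries. In CPM, these were 22.0 and 18.4 in 4T1.2 cells, 15.7 and 12.1 in 4T1 cells and at most 0.0442 in the other lines. Snai1 was thus high only in 4T1/4T1.2 libraries among these 8, and no library of one pair came near the other. The ratio of the pooled levels was 1084, with a 95% counting interval of 370.8 to 5260 (edgeR adjusted p = 2e-09). Such intervals, and the floors below, cover counting error only. Against 67NR cells, with 0 counts, the Snai1 level of 4T1.2 cells was at least 663-fold higher and that of 4T1 cells at least 463.5-fold higher, with a floor of 3 counts over the group. Between 4T1.2 and 4T1 cells the log2 fold change was 0.54 (SE 0.16, edgeR adjusted p = 0.0478), close to the threshold. The replicates of these lines did not overlap, but the call was lost without 4T1.2 replicate 1 (edgeR adjusted p = 0.275), 4T1.2 replicate 2 (0.0799), 4T1 replicate 2 (0.169) or any one of the 66cl4 and 67NR libraries (0.0636 to 0.0642).

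Snai2 (chr16:14705852-14709395) encodes Slug, which is known in the mammary gland as a factor of basal and progenitor cells. It had 1 count in each 4T1.2 library, 0 and 3 in 4T1 cells, 4222 and 4808 in 66cl4 cells and 2689 and 4216 in 67NR cells. The corresponding levels in 66cl4 cells were 93.3 and 107 CPM and those in 67NR cells were 73.4 and 68.4 CPM. The arrangement of the lines was the reverse of that of Snai1. Snai2 was lower in 4T1/4T1.2 cells, with a pooled ratio of 3737 (95% counting interval 1601 to 11510, edgeR adjusted p = 3.7e-11). It was also higher in 66cl4 than in 67NR cells, by a log2 fold change of 0.50 (SE 0.14, edgeR adjusted p = 0.01465). This call was lost without 66cl4 replicate 2 (edgeR adjusted p = 0.102), 67NR replicate 1 (0.066) or 67NR replicate 2 (0.123).

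Within the SNAI pair these patterns left a single expressed paralogue in each line. Snai2 made up at most 0.419% of the summed Snai1 and Snai2 level per length in 4T1/4T1.2 libraries and at least 99.9% in 66cl4 and 67NR libraries. The sum was 7.66 to 13.9 RPKM in the first pair and 33.9 to 53.3 RPKM in the second. The third family member, Snai3, had 0 to 8 counts in any library and was not tested.

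Twist1 (chr12:33957671-33959831), a basic helix-loop-helix factor of mesenchymal and neural crest cells, was abundant throughout. Its levels were 79.1 and 83.5 CPM in 4T1.2 cells, 100.4 and 101 CPM in 4T1 cells, 170.2 and 198 CPM in 66cl4 cells and 141 and 153 CPM in 67NR cells. The 4 lines did not overlap, and 4T1.2 was lowest and 66cl4 highest. The pooled log2 fold change was -0.86 (SE 0.07, edgeR adjusted p = 1.5e-06). In the comparisons of lines across the pairs it ran from -1.18 (SE 0.10) for 4T1.2 against 66cl4 to -0.54 (SE 0.10) for 4T1 against 67NR, and all 4 passed the test. Within the pairs the steps were smaller. The log2 fold change of -0.31 (SE 0.10) for 4T1.2 against 4T1 just missed the threshold (edgeR adjusted p = 0.05045), and it passed with DESeq2 (adjusted p = 0.0283), limma-voom (0.04997), a minimum of 10 counts in every library (0.0407), libraries thinned to the smallest total (0.0455) and without either 66cl4 library (0.0382 and 0.0384). Twist1 was higher in 66cl4 than in 67NR cells by 0.33 (SE 0.10, edgeR adjusted p = 0.0206), a call lost without 66cl4 replicate 2 (edgeR adjusted p = 0.147), 67NR replicate 1 (0.15) or 67NR replicate 2 (0.0564).

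Twist2 (chr1:91801461-91848034), its paralogue, also known as Dermo1, had 0 counts in both 4T1.2 libraries and 1 and 2 counts in 4T1 cells. It had 1475 and 1473 counts in 66cl4 cells (32.6 and 32.9 CPM) and 1002 and 1764 in 67NR cells (27.3 and 28.6 CPM). The 2 groups of lines were fully apart, as for Snai2. The pooled ratio was 2233 in favour of 66cl4 and 67NR cells (95% counting interval 764 to 10830, edgeR adjusted p = 1e-10). Against the 0 counts of 4T1.2, the Twist2 level was at least 1238-fold higher in 66cl4 and at least 1064-fold higher in 67NR cells. The log2 fold change of 0.23 (SE 0.11) for 66cl4 against 67NR did not pass the test (edgeR adjusted p = 0.135). Per length, Twist2 made up at most 0.0529% of the TWIST sum in 4T1/4T1.2 libraries and 17.1% to 19.4% in the others. A transcript annotated on the opposite strand, Gm29100, overlaps 46.5% of the Twist2 exon bases, and a library that does not mark strand cannot tell the 2 apart. For Snai1, Snai2 and Twist1 the annotation (GENCODE vM21) shows no such overlap, and for Zeb1 and Zeb2 it covers 1.93% and 3.27% of the exon bases.

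The factors of the epithelial side were close to the detection limit in all 4 lines, including 4T1 and 4T1.2, where Cdh1 was expressed. Ovol1 (chr19:5549137-5560575), a zinc finger repressor that acts in differentiating epithelium, had 1 and 2 counts in 4T1.2 cells, 12 and 16 in 4T1 cells, 4 and 4 in 66cl4 cells and 1 and 7 in 67NR cells. None of these levels exceeded 0.345 CPM, and both 4T1 libraries lay above the other 6. The pooled log2 fold change was 0.01 (SE 0.33, edgeR adjusted p = 0.98). The ratio of 4T1 to 4T1.2 was 9.86 (95% counting interval 3.05 to 50.7, edgeR adjusted p = 0.0121). That call was lost without 4T1.2 replicate 1 (edgeR adjusted p = 0.087), 4T1.2 replicate 2 (0.053) or 4T1 replicate 2 (0.0508). Ovol1 was higher in 4T1 than in 66cl4 cells by a log2 fold change of 1.54 (SE 0.59, edgeR adjusted p = 0.03895) and than in 67NR cells by 1.68 (SE 0.59, edgeR adjusted p = 0.0277), and neither passed with DESeq2 (adjusted p = 0.172 and 0.122). The first was also lost without the filter on low counts (edgeR adjusted p = 0.0663). Because Ovol1 passed that filter only through 4T1 cells, its calls in comparisons with 4T1 describe the gene and do not weigh it against other genes. Without one library, the first was lost when 4T1 replicate 2, 66cl4 replicate 1 or 66cl4 replicate 2 was left out (edgeR adjusted p from 0.119 to 0.191). The second was lost without 4T1 replicate 2 (0.154) or 67NR replicate 1 (0.119) and rose to a log2 fold change of 3.16 without 67NR replicate 2. Opposite-strand transcripts overlap 22.0% of the GENCODE exon bases of Ovol1.

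Ovol2 (chr2:144305175-144332080), which represses Zeb1 in epithelial cells, had 1 count in 4T1.2 replicate 2, 1 in 4T1 replicate 2 and 0 in the other 6 libraries. Esrp1 (chr4:11331933-11386783), the epithelial splicing regulator, had 1 count in 67NR replicate 1 and 0 in the other 7 libraries. A count of 0 allows up to 3 counts, or 0.0486 to 0.0819 CPM depending on the library. At this depth no difference between the lines was detectable for either gene. Without the filter on low counts their pooled adjusted p in edgeR was 0.372 and 1. Esrp2, the paralogue of Esrp1, had 174 and 153 counts in 4T1.2 cells, 208 and 138 in 4T1 cells and 1 or 2 in every library of 66cl4 and 67NR cells. Its pooled ratio was 115 (95% counting interval 49.0 to 355, edgeR adjusted p = 6.7e-09), so the ESRP transcripts of 4T1/4T1.2 cells were of Esrp2.

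Grhl2 (chr15:37232821-37363569), a grainyhead factor that activates Cdh1 and other junction genes, had 12 and 11 counts in 4T1.2 cells, 23 and 14 in 4T1 cells, 2 and 6 in 66cl4 cells and 24 and 40 in 67NR cells. Its highest levels, 0.655 and 0.649 CPM, were those of 67NR cells and its lowest those of 66cl4 cells, both lines with almost no Cdh1, and the 4 lines did not overlap. The pooled log2 fold change was 0.12 (SE 0.31, edgeR adjusted p = 0.726), since 66cl4 and 67NR lay on either side of 4T1 and 4T1.2. Grhl2 was lower in 66cl4 than in 67NR cells by a log2 fold change of -2.84 (SE 0.45, edgeR adjusted p = 0.00068), which was -3.81 without 66cl4 replicate 2. It was lower in 4T1.2 than in 67NR cells, at -1.67 (SE 0.36, edgeR adjusted p = 0.00226), and higher in 4T1 than in 66cl4 cells, at 1.92 (SE 0.49, edgeR adjusted p = 0.0058), which was 2.89 without 66cl4 replicate 2. The difference of 1.17 (SE 0.54) between 4T1.2 and 66cl4 did not pass (edgeR adjusted p = 0.077), but passed without 66cl4 replicate 2 (0.0316). The value of -0.92 (SE 0.33, edgeR adjusted p = 0.0317) for 4T1 against 67NR was lost without any one of the 4 libraries of these lines (edgeR adjusted p from 0.0606 to 0.129), with DESeq2 (0.168) and after thinning (0.12).

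**Figure D2:**
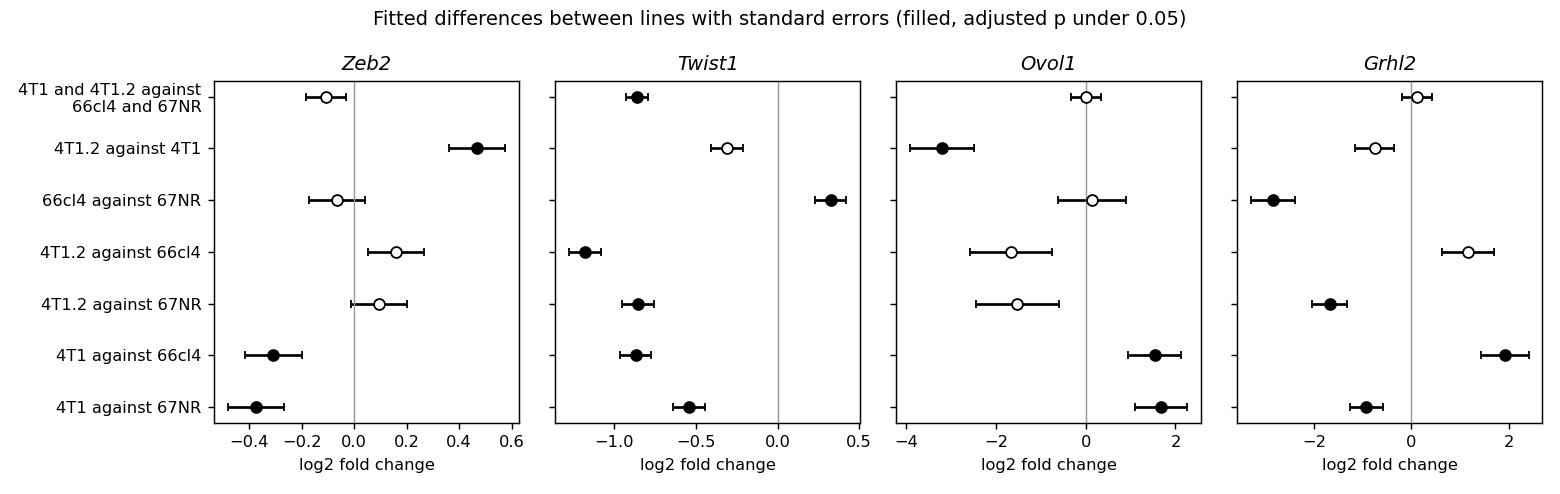
Fitted log2 fold changes with their standard errors for Zeb2, Twist1, Ovol1 and Grhl2 in the 7 comparisons, with filled points where the edgeR adjusted p is under 0.05. Twist1 lay below 0 in all comparisons between the pairs of lines (-1.18 to -0.54), whereas the pooled values of Zeb2, Ovol1 and Grhl2 lay near 0 (-0.11, 0.01 and 0.12).

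Compared per length, the order of the regulators was the same at the top of every line and differed below it. Twist1 had the highest mean RPKM of the 10 in each line, at 49.9 in 4T1.2 cells, 61.9 in 4T1 cells, 113 in 66cl4 cells and 90.2 in 67NR cells. In 4T1/4T1.2 cells it was followed by Snai1 (12.7 and 8.75 RPKM) and Zeb2 (8.37 and 6.04 RPKM). In 66cl4 and 67NR cells it was followed by Snai2 (49.8 and 35.2 RPKM), Twist2 (25.0 and 21.3 RPKM), Zeb1 (10.8 and 11.1 RPKM) and Zeb2 (7.48 and 7.84 RPKM). Replicates of neighbours in this upper part of the order did not overlap in any line. Below Zeb2, all remaining regulators lay at 0.132 RPKM or less, and there several neighbours overlapped, such as Ovol1, Snai2 and Ovol2 in 4T1.2 cells, Ovol1 and Zeb1 in 4T1 cells, and Snai1 and Grhl2 in 66cl4 cells. Each line therefore had 1 SNAI gene, Twist1 and Zeb2 above 5 RPKM, and 66cl4 and 67NR had Zeb1 and Twist2 as well.

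**Figure D3:**
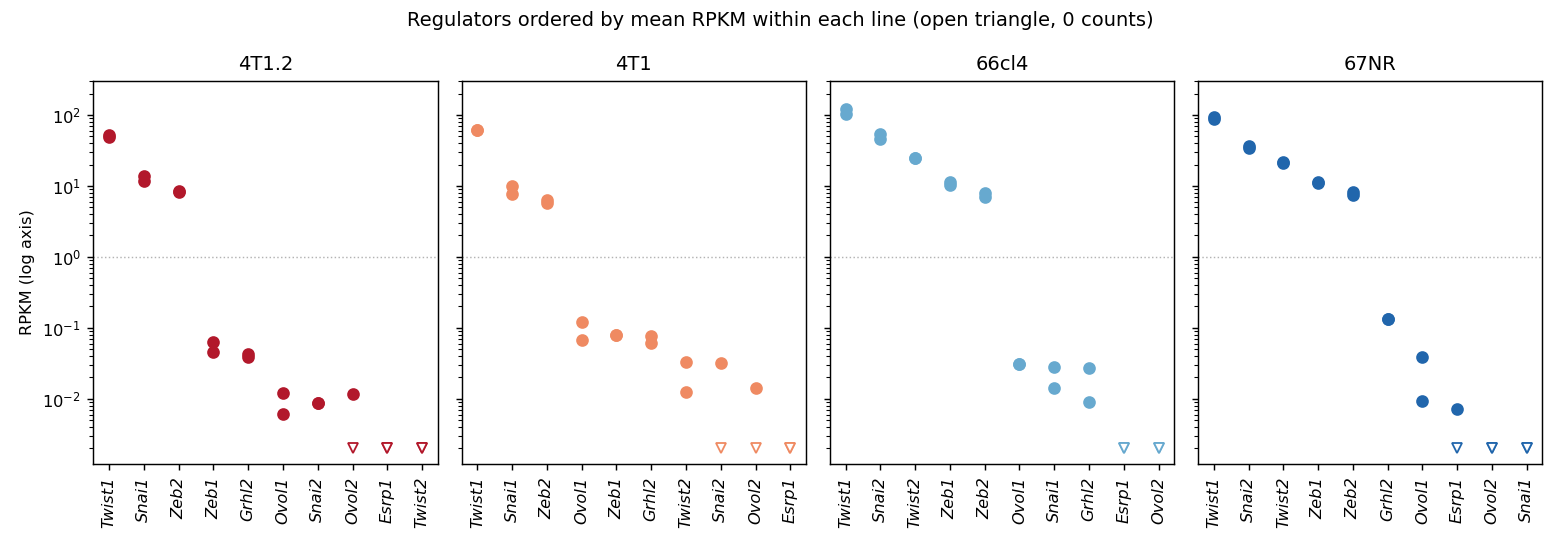
The 10 regulators in the order of their mean RPKM within each line (log axis; a point for each replicate, an open triangle for a library with 0 counts, a dotted line at 1 RPKM). In 4T1.2 and 4T1 cells 3 genes lay above the line, and in 66cl4 and 67NR cells 5 did, with all others at 0.132 RPKM or less on average.

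Between the most alike lines, the regulators that passed the test differed between the comparisons. In 4T1.2 against 4T1, 3 of the 8 did (Zeb2 and Snai1 higher, Ovol1 lower), where 19.3% of all genes did, 9.37% higher and 9.93% lower. This count fell to 0 without 4T1.2 replicate 1, without 4T1.2 replicate 2 and without 4T1 replicate 2. In 66cl4 against 67NR, 3 of the 8 passed (Snai2 and Twist1 higher, Grhl2 lower), where 44.7% of all genes did, 22.3% higher and 22.4% lower. This count was 1, Grhl2, without 66cl4 replicate 2, 67NR replicate 1 or 67NR replicate 2. Zeb1 and Twist2 did not pass in either.

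Epithelial genes, Cdh1 among them, were mostly higher in 4T1/4T1.2 cells. Of a list of 27 epithelial genes, 23 were tested, of which 20 were higher, 2 lower and 1 did not pass, and the median log2 fold change of the tested genes was 5.98, against -0.01 over all genes tested. Of all genes tested, 38.1% were higher and 38.6% lower. Many of the listed genes passed the filter only through 4T1/4T1.2 cells, so these counts describe the list and do not weigh it against other genes. Cdh1 had 661 and 629 counts in 4T1.2 cells, 2375 and 1765 in 4T1 cells, 7 and 2 in 66cl4 cells and 2 and 6 in 67NR cells. Its log2 fold change was 7.82 (SE 0.18, edgeR adjusted p = 1.5e-10). The adhesion molecule Epcam had 778 to 2378 counts in 4T1/4T1.2 libraries and a total of 1 count in the other 4, a ratio of 5226 (95% counting interval 938 to 206400, edgeR adjusted p = 6.5e-10). The tight junction claudin Cldn3 had a ratio of 3791 (95% counting interval 1297 to 18380, edgeR adjusted p = 2e-10), and the protease inhibitor gene Spint1 had a log2 fold change of 9.31 (SE 0.16, edgeR adjusted p = 2.7e-11). Those that were lower in 4T1/4T1.2 cells were the polarity gene Llgl2, at -1.27 (SE 0.07, edgeR adjusted p = 1.5e-07), and the tight junction gene Cgn, at -0.49 (SE 0.09, edgeR adjusted p = 0.00072).

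Within the first pair, the epithelial genes were lower in 4T1.2 than in 4T1 cells. Here 17 of the 23 tested genes were lower, none was higher and 6 did not pass, with a median log2 fold change of -1.34 against 0 over all genes. Of all genes, 9.37% were higher and 9.93% lower in this comparison, and the limit of the filter given above holds here too. Cdh1 was at 11.4 ± 0.385 CPM (SD, n = 2) in 4T1.2 and 38.5 ± 0.576 CPM in 4T1 cells, a log2 fold change of -1.76 (SE 0.14, edgeR adjusted p = 4.4e-05). Epcam was at 13.98 ± 0.392 CPM in 4T1.2 and 42.8 ± 5.46 CPM in 4T1 cells, a log2 fold change of -1.61 (SE 0.15, edgeR adjusted p = 0.00016). Cldn3 showed a log2 fold change of -1.34 (SE 0.17, edgeR adjusted p = 0.00063). Spint1 did not pass, at 0.24 (SE 0.13, edgeR adjusted p = 0.234), nor did Llgl2, at 0.18 (SE 0.11, edgeR adjusted p = 0.285). In the same comparison Snai1 and Zeb2 had log2 fold changes of 0.54 and 0.47, with the dependence on single libraries given above. In 66cl4 against 67NR, 3 of the 23 were higher, 4 lower and 16 did not pass, and Cdh1, at 9 and 8 counts summed over the replicates, was among the last. Of all genes, 22.3% were higher and 22.4% lower there.

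Mesenchymal genes did not move as a block. Of a list of 24, 23 were tested, of which 5 were higher in 4T1/4T1.2 cells, 16 lower and 2 did not pass. The median log2 fold change of those tested was -1.87, and of all genes 38.1% were higher and 38.6% lower. Some of the listed genes, such as Cdh2 and Col3a1, passed the filter only through 66cl4 and 67NR cells. These counts therefore describe the list and do not weigh it against other genes. Vim was among those higher, at 1.16 (SE 0.14, edgeR adjusted p = 2.7e-05), with 5453 ± 916.5 CPM in 4T1.2 cells, 5826 ± 1530 in 4T1 cells, 3276 ± 373 in 66cl4 cells and 1948 ± 76.4 in 67NR cells (SD, n = 2 each). The matrix gene Tnc, at 3.07 (SE 0.49, edgeR adjusted p = 0.00024), and the ectoenzyme gene Nt5e (CD73), at 2.22 (SE 0.06, edgeR adjusted p = 5.8e-10), were also higher. Tnc counts were few, however, at 138 summed over 4T1, 27 over 4T1.2, 17 over 66cl4 and 2 over 67NR libraries. In Tnc, 4T1.2 cells thus lay nearer to 66cl4 than to 4T1 cells. The neural cadherin Cdh2 had 0 or 1 count per library in 4T1/4T1.2 cells and 2975 to 5099 in 66cl4 and 67NR cells, a ratio of 9705 (95% counting interval 2686 to 80150, edgeR adjusted p = 1.7e-11). The fibrillar collagen genes Col5a2 and Col3a1 were lower in 4T1/4T1.2 cells, Col5a2 with a ratio of 1258 (95% counting interval 430.1 to 6104, edgeR adjusted p = 5.9e-09) and Col3a1, with 0 counts in all 4 of these libraries, at least 76.6-fold (edgeR adjusted p = 1.6e-06). Both cadherins thus separated the pairs of lines, in opposite directions, while Vim did not follow Cdh2.

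Within the pairs the mesenchymal list behaved differently. Over all genes, 9.37% were higher and 9.93% lower in 4T1.2 against 4T1. Of the 23 mesenchymal genes, 2 were higher there, 5 lower and 16 did not pass. That count of 7 was 3 without 4T1.2 replicate 1, 3 without 4T1.2 replicate 2 and 4 without 4T1 replicate 1. Vim did not pass there, at -0.10 (SE 0.19, edgeR adjusted p = 0.787), and Tnc was lower in 4T1.2 cells, at -2.41 (SE 0.41, edgeR adjusted p = 0.003). In 66cl4 against 67NR, 14 of the 23 were higher, 5 lower and 4 did not pass, where 22.3% of all genes were higher and 22.4% lower. Vim was higher in 66cl4 cells, at 0.75 (edgeR adjusted p = 0.0099), as was Col5a2, at 4.53 (edgeR adjusted p = 6.4e-07), whereas Cdh2 did not pass, at 0.20 (edgeR adjusted p = 0.196).

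**Figure D4:**
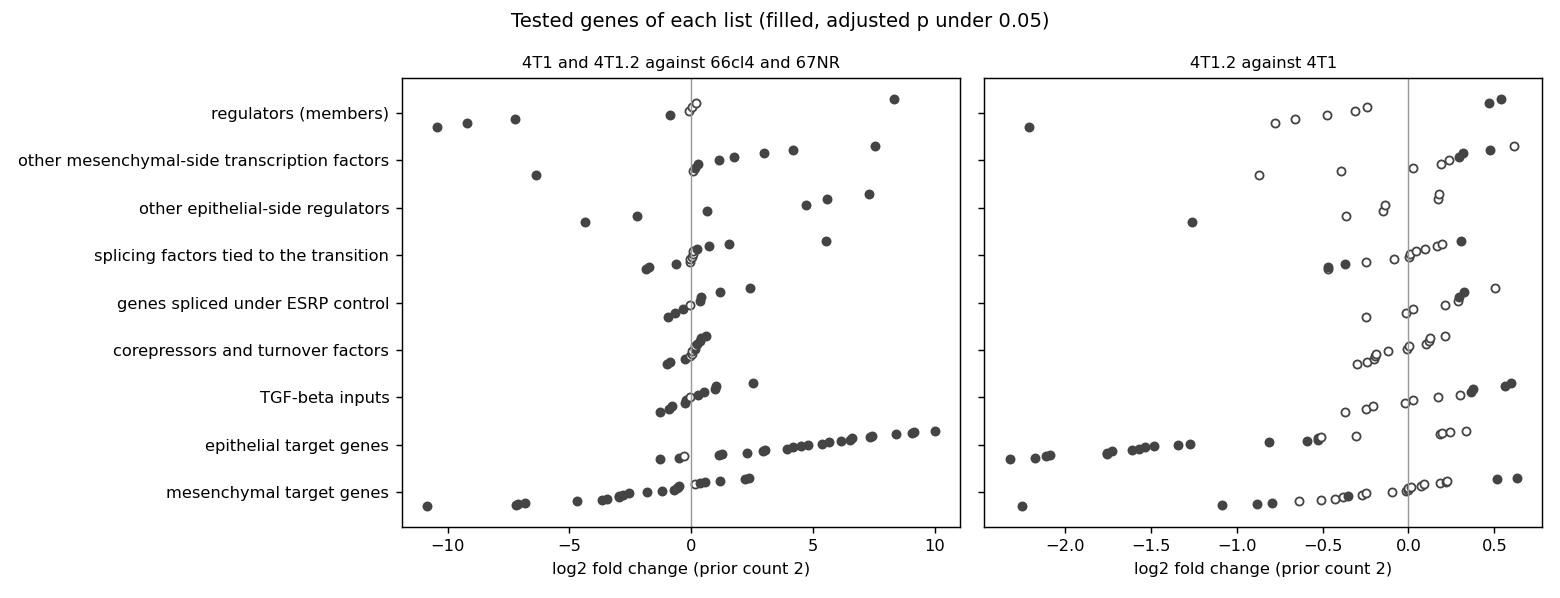
Log2 fold change (fitted with a prior count of 2, which draws in the values of genes near 0 counts) of every tested gene of each list in the pooled comparison and in 4T1.2 against 4T1, with filled points where the edgeR adjusted p is under 0.05. Most epithelial genes lay above 0 in the pooled comparison (20 of 23 higher) and below 0 in 4T1.2 against 4T1 (17 of 23 lower), while corepressors and turnover factors lay within 1 of 0 in both.

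Most of the other transcription factors linked to the mesenchymal state were higher in 4T1/4T1.2 cells. Of a list of 11, 9 were tested, of which 7 were higher, 1 lower and 1 did not pass. Of all genes, 38.1% were higher and 38.6% lower. Only 5 of the 7 were higher by more than 1 on the log2 scale. In 4T1 against 66cl4, 5 of the 9 were higher and 3 lower, where 70.1% of all genes passed. Some of the listed genes, such as Foxc2 and Klf8, passed the filter only through 4T1/4T1.2 cells. These counts therefore describe the list and do not weigh it against other genes. The forkhead gene Foxc2, with 1136 counts summed over 4T1.2 and 1061 over 4T1 libraries against 3 and 0 in 66cl4 and 67NR, had a ratio of 625 (95% counting interval 213.5 to 3031, edgeR adjusted p = 3.1e-09). The Kruppel-like gene Klf8, with 72 against 1 count, had a ratio of 61.4 (95% counting interval 10.7 to 2459, edgeR adjusted p = 5.6e-05), and the forkhead gene Foxq1 had a log2 fold change of 4.66 (SE 0.38, edgeR adjusted p = 1.8e-06). The homeobox gene Prrx1, which in contrast was lower, fell from 74.7 ± 6.08 CPM in 66cl4 and 45.35 ± 0.9405 CPM in 67NR to 0.582 ± 0.1005 CPM in 4T1.2 and 0.784 ± 0.112 CPM in 4T1 cells (SD, n = 2 each), a log2 fold change of -6.43 (SE 0.11, edgeR adjusted p = 2.5e-11). Its arrangement across the lines was that of Zeb1, Snai2 and Twist2, and that of Foxc2 was that of Snai1.

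Of 10 other epithelial-side regulators, 6 were tested, of which 4 had higher and 2 had lower levels in the 4T1/4T1.2 pair. Of all genes, 38.1% were higher and 38.6% lower. Esrp2, for 1, passed the filter only through 4T1/4T1.2 cells, so these counts only describe the list. The ETS factor Elf3 had a log2 fold change of 4.81 (SE 0.14, edgeR adjusted p = 6.9e-10), and Esrp2, described above, belonged to the same list. The grainyhead gene Grhl1 was lower, at -4.69 (SE 0.28, edgeR adjusted p = 1.5e-07), with 6.18 ± 1.08 CPM in 66cl4, 1.92 ± 0.417 in 67NR, 0.141 ± 0.0248 in 4T1.2 and 0.112 ± 0.0969 in 4T1 cells (SD, n = 2 each). Klf4 was lower as well, at -2.22 (SE 0.09, edgeR adjusted p = 6.9e-09). No grainyhead gene, Grhl3 included, was therefore above 1 CPM in 4T1/4T1.2 cells.

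Splicing factors tied to the transition, all 12 of which were tested, divided into 4 higher, 3 lower and 5 that did not pass, so that 7 of 12 were called where 76.7% of all genes were. Rbm47, which favours epithelial splicing, was highest in its difference, at 5.66 (SE 0.21, edgeR adjusted p = 3.5e-09), with 24.6 ± 3.90 CPM in 4T1.2 cells, 34.05 ± 6.23 CPM in 4T1 cells, 1.28 ± 0.559 CPM in 66cl4 cells and 0.258 ± 0.021 CPM in 67NR cells (SD, n = 2 each). The muscleblind genes differed in direction. Mbnl2 was higher, at 1.56 (SE 0.07, edgeR adjusted p = 2.6e-08), and Mbnl3 too, at 0.71 (SE 0.10, edgeR adjusted p = 0.00012), although the low libraries were those of 66cl4 (10.8 and 14.4 CPM) and those of 67NR (41.1 and 48.7 CPM) exceeded both 4T1 lines. Mbnl1 was lower, at -1.73 (SE 0.07, edgeR adjusted p = 6.4e-09). Celf2, at -1.88 (SE 0.07, edgeR adjusted p = 4.4e-09), and Rbfox2, at -0.64 (SE 0.07, edgeR adjusted p = 1.7e-05), were lower. The 8 genes whose splicing ESRP proteins are known to direct were all expressed. At the gene level 4 were higher, 3 lower and 1 did not pass, so that 7 were called where 76.7% of all genes were. The largest differences were those of the laminin receptor subunit Itga6 (2.43, SE 0.07, edgeR adjusted p = 1e-09), the growth factor receptor Fgfr2 (1.19, SE 0.13, edgeR adjusted p = 1.4e-05) and the exchange factor gene Arhgef11 (-0.96, SE 0.13, edgeR adjusted p = 6.8e-05). Cd44 was higher by 0.41, and Slk and Enah were lower, at -0.66 and -0.35. Gene-level counts do not show which exons were used.

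The cofactors through which SNAI and ZEB proteins repress their targets, and the enzymes that turn Snail over, differed by log2 fold changes of less than 1 in size in the pooled comparison. Of 12, 5 were higher, 3 lower and 4 did not pass, so that 8 were called where 76.7% of all genes were. Against 66cl4 alone 2 of them were lower by more than 1 on the log2 scale in 4T1.2 cells, and 2 in 4T1 cells. Hdac1 (0.60), Suz12 (0.41) and Ctbp1 (0.35) had the largest increases. Btrc (-0.999) and Gsk3b (-0.87), which mark Snail for degradation, had the largest decreases, and Ctbp2 was at -0.24. In the TGF-beta pathway, which induces SNAI and ZEB genes, 5 of 11 genes were higher, 5 lower and 1 did not pass. The ligands Tgfb2 (2.55, SE 0.08, edgeR adjusted p = 8.5e-10) and Tgfb1 (1.01, SE 0.09, edgeR adjusted p = 3.4e-06) and the inhibitor Skil (0.99, SE 0.06, edgeR adjusted p = 3.1e-07) were higher. The inhibitors Smad7 (-1.27, SE 0.11, edgeR adjusted p = 3.1e-06) and Ski (-0.93, SE 0.08, edgeR adjusted p = 2e-06) and the signal transducer Smad3 (-0.81, SE 0.07, edgeR adjusted p = 3.1e-06) were lower. The high Smad7 libraries were those of 66cl4, at 136 and 161 CPM, against 24.2 to 38.5 CPM in the other 6. The inhibitors were thus found on both sides, and 10 of 11 genes called compares with 76.7% of all genes. The microRNAs of the miR-200 family and miR-205, which repress Zeb1 and Zeb2, could not be assessed, since this library type does not measure mature microRNAs. Of their 6 precursor genes, 5 had 0 counts in every library and Mir429 had 2 counts in 4T1 replicate 2.

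As a description of likeness, log2 CPM values of each tested regulator were correlated with those of the other 13920 genes over the 8 libraries, which come from only 4 lines. For Zeb1 the highest Pearson r was that of Prkd1, Cd34 and Cep55, for Snai1 that of Gpr135, Pdxp and Ntng2, for Snai2 that of Fgf10, Ephx1 and Setbp1 and for Twist2 that of Cacnb2, Plppr2 and Dpysl3, all above 0.999. Each of these regulators had between 245 and 295 genes above an r of 0.99, so the genes named are a few among many with the same split of the lines. Twist1 had only 5, led by Fam214b (0.993), Phldb3 (0.992) and Trim47 (0.991), and Grhl2 had 2, Wdr4 (0.991) and Polr3g (0.99004), followed by Rtn4ip1 (0.987). Zeb2 and Ovol1 had none, and their highest values were those of Pcdhga6 (0.938), Apob (0.927) and Lnpk (0.924) and of U2af1 (0.946), Col7a1 (0.944) and Thap6 (0.935). These numbers also depend on the range and the counting noise of each regulator (1 to 16 counts per library for Ovol1 and 2 to 40 for Grhl2) and do not measure how widely a pattern was shared. Counts from such bulk samples cannot tell fewer cells expressing a gene from less RNA per cell.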

How the data were processed

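The deposited values were whole-number counts per Entrez gene, which the authors obtained by aligning reads of TruSeq libraries to mm10 with Rsubread and assigning them with featureCounts. The study gives the aligner and its version for its other libraries and states that these were analysed similarly. The strand setting of the counting is not given in the sources used here. Libraries were grouped by the cell line in their labels. From the counts, ribosomal, predicted and unmatched genes were removed (5.34% to 7.95% of counts), genes were filtered with filterByExpr and 13921 were tested by the quasi-likelihood test of edgeR 4.0.16 in R 4.3.3, with TMM factors and Benjamini-Hochberg adjustment at 0.05 in each comparison. One fit of all 4 lines gave the 7 comparisons. CPM and RPKM values describe levels. Ratios of genes near 0 counts carry exact 95% counting intervals. Gene names came from a RefSeq gene table, which matched 25275 of 27179 identifiers. The genes named were the 10 regulators, the 3 genes of each list with the largest pooled fold change in each direction among those called, and Cdh1, Epcam, Vim and Cdh2, with the 3 genes most correlated with each tested regulator as a description. One gene that this rule names is not reported here. A gene named outside this rule (Snai3, Grhl3, Krt8, Krt18, Lyz2) was chosen after its values were seen. The regulators and all lists were chosen with earlier results of these data known. DESeq2 1.42.0 and limma-voom (limma 3.58.1) served as alternatives, beside other filters, thinned counts, a replicate block and leaving out each library. The tests were checked on made-up counts with known changes.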

Additional observations from a re-analysis of the deposited data

How the results depend on the processing

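Of 413 values recomputed under another tool, filter or scaling, 401 kept their direction and side of the threshold, 5 lost and 5 gained the call and 2 changed sign. Of 448 values without 1 library, the numbers were 402, 34, 3 and 9. The sign changes were in differences that did not pass the test, and the cause was not tested. With at least 10 counts in every library fewer genes were tested, and of the regulators only Zeb1, Zeb2 and Twist1 remained. Of these, the regulators called were 2 (pooled), 1 (66cl4 against 67NR), 2 and 2 (4T1.2 against 66cl4 and 67NR) and 3 and 3 (4T1 against 66cl4 and 67NR). The other regulators were not tested under this filter, so these counts cannot be set beside those above. The lists, which also lost genes such as Cdh1 to this filter, then gave 5 other mesenchymal and 3 other epithelial regulators called (pooled), 7, 5 and 4 epithelial genes (pooled, 4T1.2 against 4T1, 66cl4 against 67NR) and 12 and 11 mesenchymal genes (pooled, 66cl4 against 67NR). The share of all genes called under this filter is not given here. Thinning gave Ovol1 a pooled log2 fold change of -0.16, and limma-voom gave Snai2 0.18 in 4T1.2 against 4T1.

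Without 1 library, the regulators called ranged from 0 to 3 in 4T1.2 against 4T1, 1 to 3 in 66cl4 against 67NR and 5 to 8 in 4T1 against 67NR, and the mesenchymal genes from 3 to 6 in 4T1.2 against 4T1, of 7 with all libraries. The log2 fold changes ranged from -0.25 to 0.75 for Ovol1 and from -0.16 to 0.61 for Grhl2 (pooled), from -1.74 to 3.06 for Snai2 in 4T1.2 against 4T1, and, in 66cl4 against 67NR, from -0.0974 to 0.02025 for Zeb1, -0.1817 to 0.04048 for Zeb2 and -0.35 to 1.62 for Ovol1.

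With the replicate block, 5 regulators were called in the pooled comparison, 4 in 4T1.2 against 4T1, where Twist1 was added at -0.31 (adjusted p = 0.0286, edgeR), and 3 in 66cl4 against 67NR. The share of all genes called with this block is not given here, so these counts do not weigh the regulators against other genes. The deviations of libraries with the same number correlated at 0.269 between 4T1.2 and 4T1. Between the other lines the correlations ran from -0.123 to 0.0736. Whether the numbers pair the libraries of 4T1.2 and 4T1 cannot be told from these values. Depth limits Ovol1, Ovol2, Grhl2 and Esrp1, which had 0 to 40 counts per library.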
